A study of Mus musculus with 2 samples.

Results

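The serpins are a family of proteins that share 1 fold and mostly act as suicide inhibitors of serine proteases: the target cleaves an exposed loop of the serpin and is trapped in a covalent complex. Clade A and several members of other clades are plasma proteins made mainly by hepatocytes, among them inhibitors of elastase, thrombin and plasmin and the carriers of corticosteroids and thyroxine. Clade B members stay mostly inside cells, and a few serpins, such as the collagen chaperone Serpinh1 and the secreted Serpinf1, inhibit no protease. The family was taken as all genes whose symbol starts with Serpin, a letter and a digit. Symbols were assigned by matching each probe's transcript accession to RefSeq, which gave 75 probes for 60 of the 20886 genes on the array. Of the 69 Serpin symbols in the RefSeq table, 9 matched no probe (Serpina16, Serpina1b, Serpina3d-ps, Serpina3e-ps, Serpina3g, Serpina3l-ps, Serpinb1-ps1, Serpinb9h and Serpine3).

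The RNA came from male wild-type C57BL/6J mice fed a normal or a high-fat diet for 4 weeks. It was pooled by diet from a total the labels give as 10 livers and 10 adipose tissues, and the labels do not say how many animals each pool held or which fat depot was taken. Liver had 1 Agilent array and adipose tissue another, each with the normal-diet pool labelled with Cy3 (green) and the high-fat pool with Cy5 (red), and no dyes were swapped. A single array per tissue gives no spread between animals, no test and no p-value, and diet cannot be told apart from a dye effect. A gene was therefore called higher or lower by a fixed rule of size, at least 2-fold between the pools. The error after a ± sign is the scanner software's own error of the log2 ratio, averaged over a gene's probes. It covers the measurement on 1 array only.

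A gene was measured when a probe was well above background in both channels, which held for 13632 genes in liver and 14310 in adipose tissue. Levels are normalized log2 intensities and are compared only for the same gene between pools. Ratios are log2 of the high-fat over the normal-diet pool. In pooled tissue, fewer cells of a type and less RNA per cell cannot be told apart. In the normal-diet pools, 13 of 14 hepatocyte markers had the higher level in liver and 12 of 12 adipocyte markers in fat. Markers of organs other than fat stood far apart between the diets on the adipose array. All 14 measured small intestine markers were at least 2-fold higher in the high-fat pool, while 11 of 14 hepatocyte, 10 of 10 exocrine pancreas (median -2.06) and 5 of 6 measured male reproductive tract markers were at least 2-fold lower. Skeletal muscle markers were lower in the high-fat pools of both tissues, at least 2-fold in 5 of 8 measured in fat and in 7 of 9 in liver (median -1.48 in both), and their part in the Serpin ratios was not tested. The Serpin ratios in fat were measured in the same pools, and no result can be given without them.

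Of the 59 Serpin genes described, 31 were measured on both arrays, 5 in liver alone, 1 (Serpinb6e) in adipose tissue alone and 22 on neither. Clade A had 19 of 23 members measured in liver and 16 in adipose tissue. Clade B had 10 and 9 of 27, and clades C to I had 7 of 9 on either array. In liver, none of the 36 measured was at least 2-fold higher or lower in the high-fat pool. Over all measured liver genes, 0.491% were that much higher and 0.58% lower. In adipose tissue, 3 of 32 members were at least 2-fold higher and 12 lower, where 4.23% and 5.13% of all genes were. At 1.5-fold the counts in fat were 9 higher and 12 lower, where 9.14% and 10.2% of all genes were. Every one of those 12 is on the list of serpins secreted by hepatocytes except Serpina1f. If each array is centred on its median instead of fitted by loess, the counts are 11 higher and 0 lower in liver, and 13 higher and 12 lower in adipose tissue. The median of all measured genes is then itself at 0.32 in liver and 0.69 in adipose tissue. Relative to that shift, 5 members were higher and 0 lower in liver, and 6 were higher and 13 lower in adipose tissue.

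**Figure D1:**
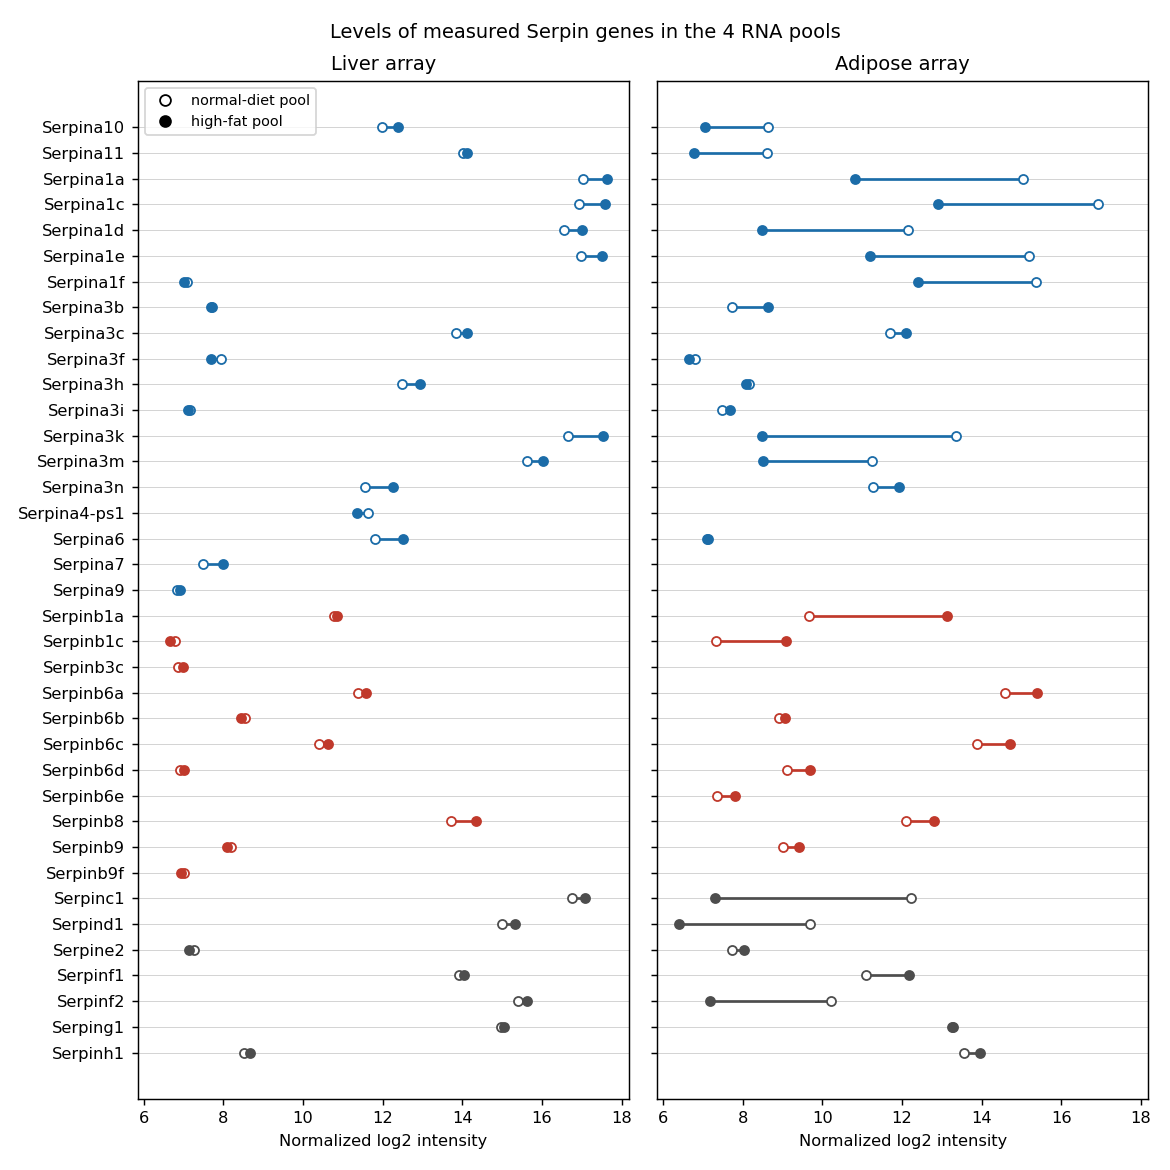
Normalized log2 intensity of the Serpin genes described that were measured on either array, in the normal-diet pool (open circles) and the high-fat pool (filled circles). Blue is clade A, red clade B and grey the other clades. On the liver array the pools lie within 2-fold for every gene shown, and on the adipose array the long lines are those of hepatocyte-secreted serpins, Serpina1f and Serpinb1a.

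The plasma serpins of the liver lay slightly above 0 as a group. All 14 hepatocyte-secreted members on the array were measured, and each had a ratio above 0, where 52.3% of all measured genes did. Their median was 0.45 and their range 0.10 to 0.87, against a median of 0.01 over all genes. None passed 2-fold. The highest was Serpina3k, a plasma inhibitor of kallikreins, at 16.66 on normal diet and 17.53 on high fat (0.87 ± 0.21). Serpina6 (0.68) came next, then copies of α1-antitrypsin, the inhibitor of neutrophil elastase. Serpina1c was at 16.94 and 17.58 (0.64 ± 0.20). Serpina1a was at 17.02 and 17.63 (0.60 ± 0.20). The copies Serpina1e and Serpina1d had ratios of 0.53 and 0.47. These copies are so alike in sequence that a probe for one can bind transcripts of another, and the same holds for the Serpina3 genes, so their ratios may not be separate observations.

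The liver ratios of the most abundant serpins lie where other bright genes lie. Between 17 and 18 on the mean log2 intensity scale there were 6 Serpin genes with a median ratio of 0.57, and the 50 genes of that brightness together had a median of 0.61. Serpinc1, which encodes antithrombin, was at 16.75 and 17.09 (0.35 ± 0.20), the same as the running median of equally bright probes (0.35). Under the scanner software's log ratio it was at -0.06. With that log ratio the median of the 14 genes was 0.21 and Serpina3k fell to 0.48. With the running median by brightness subtracted these values were 0.27 and 0.50. What sets the ratio of bright genes was not tested.

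**Figure D2:**
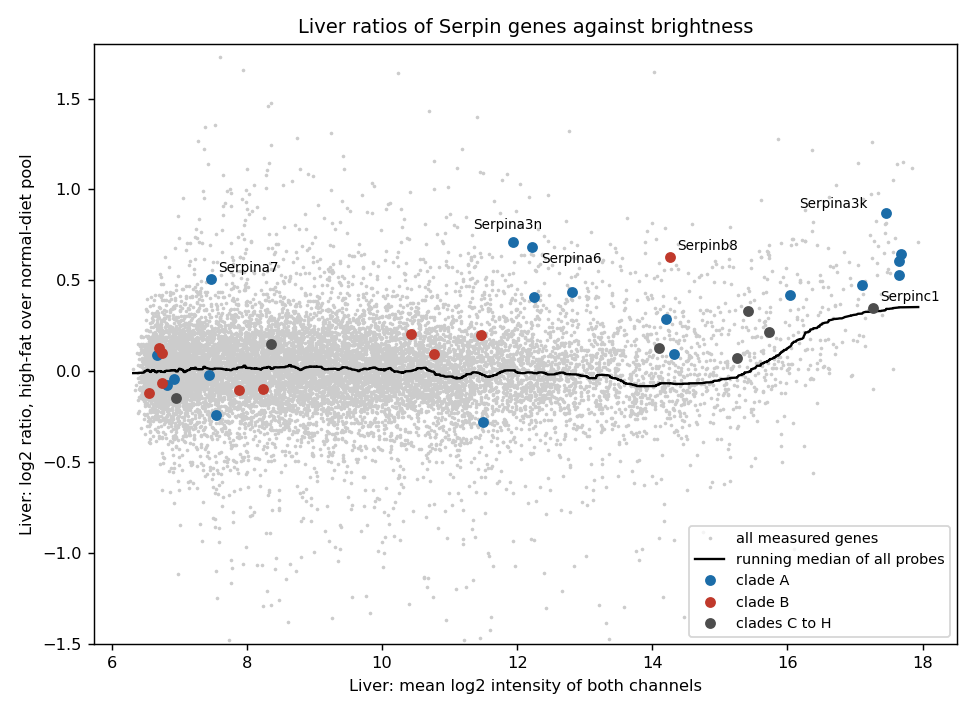
Liver log2 ratio of high-fat over normal-diet pool against the mean log2 intensity of both channels, for all measured genes (grey dots) and the Serpin genes (coloured). The black line is the smoothed running median over measured probes, and genes beyond the vertical range of the plot are not drawn. The brightest serpins sit at the rise of the line, while Serpina3n, Serpina6 and Serpinb8 lie well above it.

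At middle brightness, where the running median is near 0, 3 serpins were at least 1.5-fold higher in liver. Serpina3n, a mouse counterpart of α1-antichymotrypsin that rises in the acute phase response, was at 11.55 and 12.26 (0.71 ± 0.22). Serpina6, corticosteroid-binding globulin, was at 11.82 and 12.50 (0.68 ± 0.21), and its probes gave 0.49 and 0.88. Serpinb8, an intracellular inhibitor of furin, was at 13.71 and 14.34 (0.63 ± 0.21). With these, 6 of the 36 measured members were at least 1.5-fold higher and none that much lower, where 2.46% and 1.8% of all genes were. The count was 3 with the running median by brightness subtracted, where Serpina3k (0.50), Serpina1c (0.25) and Serpina1a (0.21) fell short. It was 4 with the software's log ratio, 3 with local backgrounds as deposited and 21 with median centring. The 3 left on deposited backgrounds were the bright Serpina3k (0.91), Serpina1c (0.70) and Serpina1a (0.66). Under that setting Serpina3n (0.53), Serpina6 (0.48) and Serpinb8 (0.55) fell short of 1.5-fold, so their place in the count depended on the background step. Serpina7, the thyroxine carrier, was dim at 7.49 and 8.0 (0.51 ± 0.23). Its ratio depended on the processing, at 0.04 with local backgrounds as deposited and 0.94 with the software's log ratio. Serpina10, which inhibits factor Xa together with protein Z, was at 0.41, and Serpind1 (heparin cofactor II) at 0.33. Serpina11 (0.10) and Serpinf2 (0.22), the inhibitor of plasmin, were nearest 0 within the hepatocyte list.

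The remaining liver members lay within 0.45 of 0. Serping1, the C1 inhibitor that restrains complement and plasma kallikrein, was at 14.97 and 15.04 (0.07 ± 0.20). Serpinf1, known as PEDF, was at 13.91 and 14.04 (0.12 ± 0.20). Serpinh1, the chaperone of procollagen, was at 8.52 and 8.67 (0.15 ± 0.21). None of these differences exceeded its scanner error. The lowest ratio belonged to the transcribed pseudogene Serpina4-ps1, at 11.63 and 11.35 (-0.28 ± 0.21). Apart from Serpinb8, the measured clade B genes lay between -0.12 (Serpinb1c) and 0.21 (Serpinb6c), none beyond its scanner error. Serpina12, known as vaspin, was above background in the high-fat liver channel alone, near the lowest level measured, and its ratio has no bound.

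In adipose tissue the hepatocyte-secreted serpins were far lower in the high-fat pool. Of 13 measured, 11 (84.6%) were at least 2-fold lower, where 5.13% of all genes were. The median was -3.28, against -0.01 over all genes. Serpinc1 was at 12.23 on normal diet and 7.29 on high fat, a ratio of -4.93 ± 0.56 (30.6-fold). Serpina3k was at 13.36 and 8.47 (-4.88 ± 0.53, 29.5-fold). In both cases the high-fat level lay low in the range of the array while the normal-diet level was bright. Serpina1a was at 15.04 and 10.81 (-4.23 ± 0.46). Serpina1c was at 16.92 and 12.90 (-4.02 ± 0.43). Serpina1e was at 15.19 and 11.21 (-3.98 ± 0.44), and Serpina1d was at 12.16 and 8.48 (-3.68 ± 0.42). The α1-antitrypsin copies thus shared nearly 1 ratio.

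Serpind1, an inhibitor of thrombin, was at 9.69 and 6.41 (-3.28 ± 0.44). Serpinf2, the plasmin inhibitor, was at 10.23 and 7.17 (-3.06 ± 0.40). Serpina3m, a further copy of the contrapsin type, was at 11.26 and 8.5 (-2.76 ± 0.35). The smallest differences of the 11 belonged to genes already dim on normal diet. Serpina11, a serpin of plasma with no known target protease, was at 8.61 and 6.77 (-1.84 ± 0.32). Serpina10 was at 8.64 and 7.05 on its 1 measured probe (-1.59 ± 0.29), and with its dim second probe included the ratio was -0.87, short of 2-fold.

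Hepatocyte markers moved with these genes. Of 14 markers, 11 were at least 2-fold lower in the high-fat fat pool (median -4.15, range -5.59 to 0.44), among them Fgg (-5.32), Ambp (-5.59) and Alb (-3.63), and all were above background in both channels. Their summed log2 level was 18.16 on normal diet and 17.74 on high fat. Bright in that sum on both diets were Hp (0.44), which fat also expresses, and Pck1 (-0.37), at 16.52 and 16.15. The part of the hepatocyte markers in the Serpin ratios was not tested. On the liver array itself the same 14 markers had a median of 0.38.

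**Figure D3:**
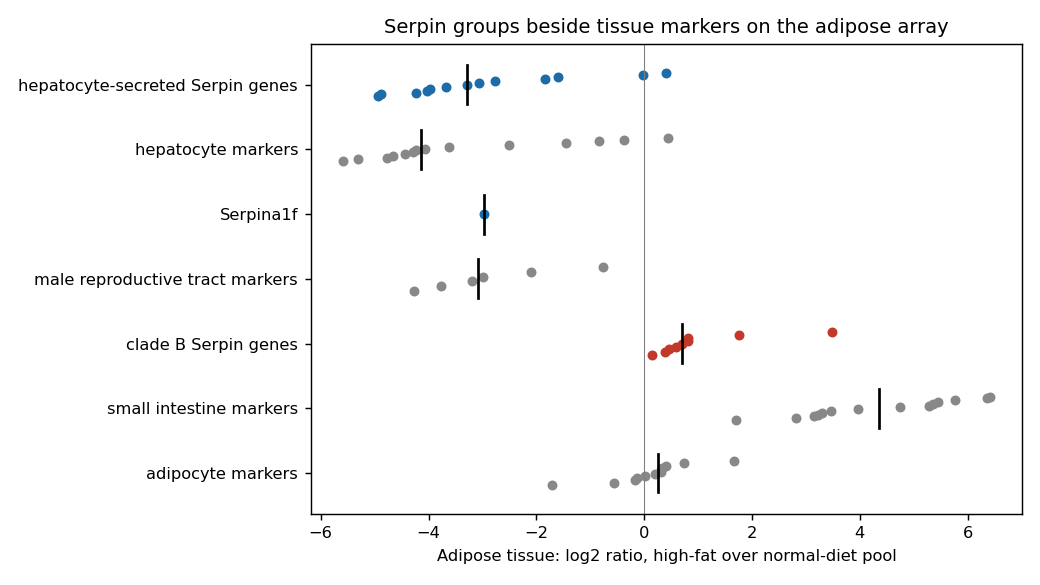
Log2 ratio of high-fat over normal-diet pool on the adipose array for single genes (dots) of 3 Serpin groups and 4 sets of tissue markers in grey, with the median of each set as a black bar. Hepatocyte-secreted serpins (median -3.28) lie beside the hepatocyte markers (-4.15), Serpina1f beside the male reproductive tract markers, and clade B to the right of 0.

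The promoters of the α1-antitrypsin copies are shown because these genes had similar ratios on each array, while their neighbour Serpina1f did not go with them in liver. Each line is the coding strand from RefSeq (GRCm38.p6, minus strand of chromosome 12), 76 bases upstream of the annotated start. Capitals mark GTTAAT, a run of letters that the 4 copies share. Its first base lies 21 bases before the annotated start in Serpina1a, 27 in Serpina1c, 16 in Serpina1d and 78 in Serpina1e. For Serpina1f, which lacks those letters on both strands of its window, the last 76 bases before the start are given.
Serpina1a: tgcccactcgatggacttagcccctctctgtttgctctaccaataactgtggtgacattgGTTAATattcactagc
Serpina1c: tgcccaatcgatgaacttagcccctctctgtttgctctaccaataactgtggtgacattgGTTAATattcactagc
Serpina1d: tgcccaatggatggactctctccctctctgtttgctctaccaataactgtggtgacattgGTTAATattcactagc
Serpina1e: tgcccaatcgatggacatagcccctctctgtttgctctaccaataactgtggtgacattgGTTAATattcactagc
Serpina1f: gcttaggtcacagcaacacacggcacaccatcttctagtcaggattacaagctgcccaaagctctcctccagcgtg
The stretches lie at chr12:103863625-103863700 (Serpina1a), chr12:103904962-103905037 (Serpina1c), chr12:103773634-103773709 (Serpina1d), chr12:103956960-103957035 (Serpina1e) and chr12:103695530-103695605 (Serpina1f). Against Serpina1a, 97.4% of the bases were identical in Serpina1c and Serpina1e and 92.1% in Serpina1d, aligned at the motif without gaps. In Serpina1f, where no motif fixes the alignment, 28.9% were.

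GTTAAT on either strand was in 7.10% of all 32851 RefSeq promoter windows, each of 300 bases that span the start, and in 6 of the 10 hepatocyte-secreted serpins that have a window (Serpina1a, Serpina1c, Serpina1d, Serpina1e, Serpina3c and Serpina7). Of these 6, 4 are the near-identical copies whose ratios led to their being shown, so the count is no test and nothing is read from it. GTTAAT was in 4 of the 39 other Serpin members that have a window. Members were counted once, if any window held the letters, while the percentages are of windows. The other letters searched, on both strands, were TTGCNNAA for C/EBP (10.8% of all windows, 5 of the 10), CAAAGNNCA for HNF4 (6.36%, 3 of 10), TTCNNNGAA for STAT (8.30%, 1 of 10) and TATAAA (13.6%, 2 of 10). The letters TGTTTAC for FOXA (3.65%), CAAAGTCCA for HNF4 (0.475%, contained in the looser HNF4 letters) and CACGTG for an E-box (7.15%) were in none of the 10. Of the 59 members described, 49 have a RefSeq window. Serpina3c holds GTTAAT and was at 0.41 in fat, and Serpina7 holds it and was not above background there.

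Serpina1f is a copy within the α1-antitrypsin cluster that is known in mouse from the epididymis. It was near the lower end of the array in liver, at 7.08 and 7.01 (-0.07 ± 0.28). In adipose tissue it was at 15.37 on normal diet and 12.40 on high fat (-2.98 ± 0.35, 7.86-fold lower). Its normal-diet level in fat was thus 8.29 above that in liver, while Serpina1a to Serpina1e were no brighter in fat than in liver. Markers of the male reproductive tract moved with it: 5 of 6 measured were at least 2-fold lower (median -3.09, range -4.27 to -0.77), and their summed log2 level was 16.38 on normal diet and 13.04 on high fat. Of those 5, Crisp1 (-3.19) is an epididymal secretory protein, and Tnp2, Prm2, Prm1 and Tnp1 are spermatid genes. The other epididymal markers were dimmer: Lcn5 was above background on normal diet alone, Adam7 on high fat alone and Defb20 in neither, as was Svs4 of the seminal vesicle. Their part in the Serpina1f ratio was not tested.

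Of the 23 Serpina genes, 22 lie on chromosome 12 and Serpina7 on X. At one end of the cluster Serpina10 was 2-fold lower in fat, and its neighbour Serpina6 was not. From Serpina1f through Serpina11, 6 neighbours with probes were all at least 2-fold lower. Further along, Serpina3b (0.90 ± 0.24), Serpina3c (0.41 ± 0.21), Serpina3f (-0.17), Serpina3h (-0.08) and Serpina3i (0.21) were not lower by 2-fold, then Serpina3k and Serpina3m were, and Serpina3n at the end was not. Serpina3b was dim, at 7.73 and 8.63 on 1 probe, and passed 2-fold with an offset of 10 (1.08) and with the software's log ratio (1.20).

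**Figure D4:**
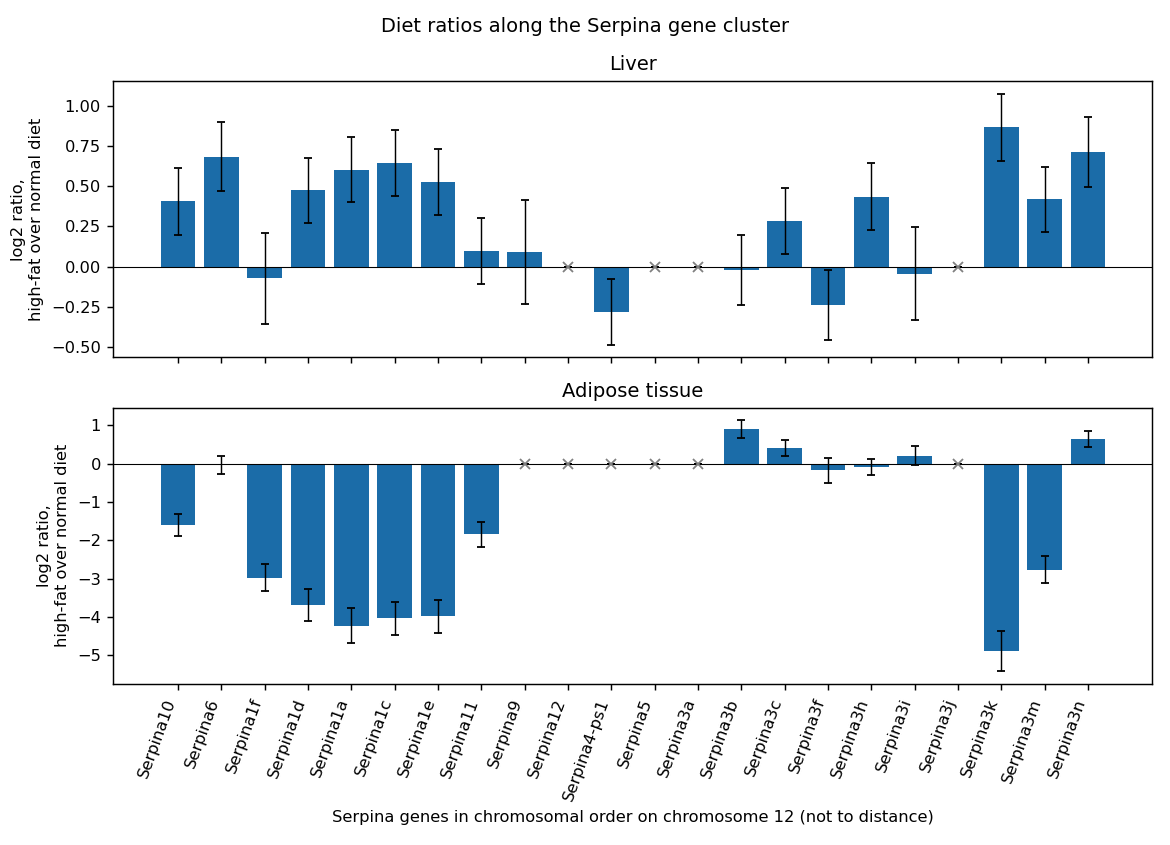
Log2 ratio of high-fat over normal-diet pool for the Serpina genes on chromosome 12, in chromosomal order, in liver (top) and adipose tissue (bottom), each with its own vertical scale. Bars show the ratio, whiskers the scanner software's error and crosses genes not measured. In fat Serpina10 is low at the left end, and low ratios then run from Serpina1f to Serpina11 and again at Serpina3k and Serpina3m.

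Some liver serpins did not go with the hepatocyte markers in fat. Serpina3c was at 11.70 and 12.11 (0.41 ± 0.21). Serpina3n was at 11.28 and 11.93 (0.65 ± 0.21), close to its ratio in liver, and its normal-diet level differed by only 0.27 between the tissues. Serpina6 was at 7.14 and 7.11 (-0.03 ± 0.24) on its measured probe, and its second probe, above background on normal diet alone, was at 7.59 and 5.96. With both probes the ratio was -0.83, so the probes disagreed. Serping1 was level at 13.29 and 13.25 (-0.04 ± 0.20). Serpina7, measured in liver, was not above background in fat, so it has no ratio there to set beside the markers.

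Among the clade B serpins, which act inside cells, Serpinb1a and Serpinb1c were higher in the high-fat fat pool. All 9 measured members of 27 had ratios above 0, where 49.3% of all genes did, with a median of 0.69. At least 2-fold higher were 2 of the 9 (22.2%), where 4.23% of all genes were. Of the 9, 5 are Serpinb6 copies and 2 are Serpinb1 copies, so their ratios may not be separate observations. With no filter on dim probes 18 of 27 lay above 0, with a median of 0.14. Serpinb1a, an inhibitor of neutrophil elastase and cathepsin G, was at 9.65 on normal diet and 13.14 on high fat (3.49 ± 0.41, 11.2-fold). Its copy Serpinb1c was at 7.33 and 9.08 (1.75 ± 0.33, 3.37-fold). Neither gene separated the diets in liver, at 0.09 and -0.12. At least 1.5-fold but under 2-fold were Serpinb6c (0.82 ± 0.22), Serpinb6a (0.82 ± 0.22), Serpinb8 (0.69 ± 0.21) and Serpinb6d (0.59 ± 0.21). Serpinb6e (0.45), Serpinb9 (0.39), which inhibits granzyme B, and Serpinb6b (0.14) were nearer 0.

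Markers of the small intestine were higher in the same pool. The 14 measured had a median of 4.36 (range 1.70 to 6.42), the other 1 of the list was above background on high fat alone, and their summed log2 level was 15.09 on normal diet and 19.44 on high fat. Of the neutrophil and mast cell markers, S100a8 (1.51) passed 2-fold and the other 6 measured lay between -0.89 and 0.50, while Ngp was not above background. Macrophage markers had a median of 0.19 over 9 members with none past 2-fold. Their part in the clade B ratios was not tested.

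Outside clades A and B, Serpinf1 was at least 2-fold higher. PEDF binds the lipase ATGL and is known as a product of fat cells and of liver. It was at 11.10 and 12.18 in fat (1.08 ± 0.23, 2.12-fold), and its probes gave 1.06 and 1.1. Serpinh1 was at 13.55 and 13.97 (0.42 ± 0.21), and its clients Col1a1, Col1a2 and Col3a1 were at 0.42, 0.29 and 0.85. The 6 fibroblast markers, which include these collagens, had a median of 0.36 with none past 2-fold. Of them Dcn (-0.75) and Pdgfra (-0.30) lay below 0. Serpine2, an inhibitor of thrombin and urokinase at the cell surface, was at 7.73 and 8.04 (0.31 ± 0.22). Adipocyte markers had a median of 0.26 over 12 genes, of which Lep (1.66) was at least 2-fold higher and Cfd (-1.70) at least 2-fold lower.

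**Figure D5:**
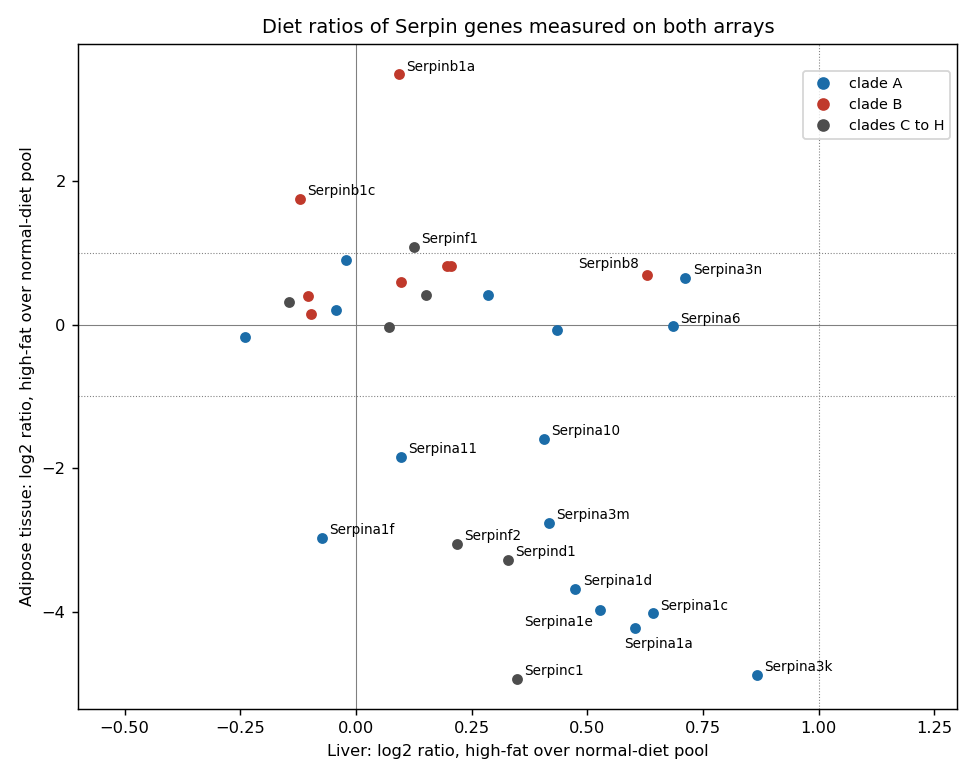
Log2 ratio of high-fat over normal-diet pool in adipose tissue (vertical) against that in liver (horizontal) for the 31 Serpin genes measured on both arrays. Dotted lines mark 2-fold. Liver-type serpins fill the lower right and Serpinb1a stands at the top.

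Between the tissues, 14 of the 31 genes had a ratio above 0 in liver and below 0 in fat, 6 the reverse and 11 the same sign in both. On normal diet 20 were brighter in liver and 11 in fat. The genes brightest in fat relative to liver were Serpina1f (by 8.29), Serpinh1 (5.03), Serpinb6c (3.49) and Serpinb6a (3.21). Those brightest in liver relative to fat were Serpina11 (5.41), Serpind1 (5.31) and Serpinf2 (5.17). Such differences of level rest on the quantile scaling of both arrays to the same distribution, and tissue cannot be told apart from slide and scan.

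The partners of the serpins were described from lists of known targets, cofactors and regulators. Of 27 target proteases measured in liver none was 2-fold apart, and the farthest were Ctss (cathepsin S, 0.42), Hgfac (0.30), F11 (0.28) and Ctsl (-0.28). In fat, 4 of 32 (12.5%) were higher and 9 (28.1%) lower, where 4.23% and 5.13% of all genes were. The lowest were the liver-made F2 (prothrombin, -4.24), Plg (plasminogen, -3.94), F12 (-3.32) and Tmprss6 (-3.00). Proc (-2.93), F10 (-1.67) and Klkb1 (-1.45) were also at least 2-fold lower. The coagulation proteases F11 (-0.43), F9 (-0.65) and F7 (0.08) were not 2-fold apart. These were already dim in fat on normal diet, at 6.76, 7.74 and 6.96. Prss1 was at 7.59 there and had a ratio of -1.22. Whether the low levels limited these ratios was not tested. Of the cofactors and receptors, Vtn, the adhesive plasma protein vitronectin, was at 0.42 in liver and -1.84 in fat. In liver Vldlr (-0.41), Thbd (-0.28) and Lrp1 (0.25) followed, and in fat Thbd (-0.88), Sdc1 (0.75) and Sdc4 (-0.74). Vtn was the only member of this list past 2-fold. That is 1 of 15 measured in fat (6.67%), where 5.13% of all genes were that much lower.

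The list of other protease inhibitors, whose symbols do not start with Serpin, split as the serpins did. It holds Agt (0.10 in liver, -0.88 in fat), which only the rule on symbols leaves out of the family. In liver none of 32 was 2-fold apart, and the farthest were the plasma proteins Ahsg (0.73), Mug1 (0.65), Mug2 (0.60) and the trypsin inhibitor Spink1 (0.56). In fat, 14 of 33 (42.4%) were lower and 4 (12.1%) higher, where 5.13% and 4.23% of all genes were. Ambp (-5.59), Pzp (-4.85) and Mug1 (-4.31), all made in liver, were lowest, and Spink1 (5.01), which gut and pancreas make, was highest. Among 12 regulators of serpin transcription none passed 2-fold in liver, where Cebpd was at -0.78, Il1r1 at -0.65, Socs3 at 0.60 and Stat5b at -0.35. In fat Hnf4a (1.90) and Nr1h4 (1.54), which enterocytes also express, were higher and Cebpd (-1.0) lower, and Cebpa was at -0.85. Thus 2 of 12 (16.7%) were higher and 1 (8.33%) lower, where 4.23% and 5.13% of all genes were. What these regulators have to do with the Serpin ratios was not tested.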

How the data were processed

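The deposited scanner files hold, per the file headers, the median pixel intensity of 44397 spots and of their local background in each channel, without normalization, and the authors' software log10 ratio of red over green with its error. The Feature Extraction version is 11.5.1.1 per the file headers and 8.5.1.1 in the submitters' processing notes. Mapping rests on accession matches (27508 of 39429 probes to 1 gene).

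Ratios were computed in R 4.3.3 by limma 3.58.1. Local backgrounds flagged as outliers were first replaced by the array and channel median, a step known from earlier results to matter, and normexp (offset 50) was followed by loess with control spots at weight 0, and Aquantile for levels. Normexp and loess, not the replacement of backgrounds, were tested on simulated data. Spots of a probe, then probes of a gene, were averaged as log2 values. All spots of a probe not marked as outliers had to be well above background. No spot was saturated. For genes above background in 1 channel, the ratio is a bound against the higher of the dim level and the lowest level above background, not given where it is under 1. Named genes are members past 2-fold, serpins fixed by name, and the 4 farthest of each partner list. Some further members of those lists are named beside them. The fit and the background shares cover all genes, and 1 family member and 1 listed regulator are not reported here. Members, lists and rules were chosen with earlier results of these data known. The planned identity between proteins was not run, and 10 alternatives, with 1 more chosen after seeing the data (a running median by brightness), are described below. Counts at 1.5-fold under each setting were also added after seeing the data. The number of arrays limits the precision.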

Additional observations from a re-analysis of the deposited data

Results flagged for a closer look

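For 3 genes the arrays ran in opposite directions with both ratios at least 1.5-fold from 1, high-fat over normal-diet pool. The log2 ratio in liver exceeded that in fat by 5.75 for Serpina3k, by 4.83 for Serpina1a and by 4.67 for Serpina1c. With 1 array per tissue the difference was not tested. Hepatocyte markers on the same arrays had medians of 0.38 in liver and -4.15 in fat.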

How the results depend on the processing

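Counts of Serpin genes past 2-fold changed with few settings. Higher in liver, the count went from 0 to 11 with median centring and to 6 at a 1.5-fold threshold. Higher in adipose tissue, it went from 3 to 13 with median centring, to 9 at 1.5-fold, and to 4 with a normexp offset of 10 and with the software's log ratio. Median centring subtracts 1 constant per array, so a dye difference that changes with brightness stays in. The count lower in adipose tissue was 11 to 12 in all 11 alternatives, and the count lower in liver was 0 in all of them. The median of hepatocyte-secreted serpins stayed above 0 in liver (0.21 to 1.19) and below 0 in adipose tissue (-3.97 to -2.73), and that of clade B in adipose tissue lay between 0.14 (no filter on dim probes, 27 members) and 1.75. No ratio past 2-fold changed sign. Genes near the lowest level above background (6.19 and 6.37 in the green and red liver channels, 6.26 and 5.66 in fat) are limited by background correction. No paired analysis was possible because each tissue has 1 array.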

Other observations

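Probes of 1 gene agreed on the diet ratio of the α1-antitrypsin copies and not on the difference between tissues. On normal diet 1 Serpina1a probe was at 17.20 in liver and 16.68 in fat, and the other at 16.85 and 13.41, while their ratios in fat were -4.31 and -4.15. The Serpina1e probes were at 16.94 and 16.35, and at 17.00 and 14.02, with ratios of -3.92 and -4.04. The Serpina1c probe was as bright in fat as in liver (16.92 and 16.94). Which transcripts each probe binds was not tested, as probe sequences were not used here.

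Several serpins were above background only in the high-fat channel of fat, none with a bound past 2-fold. The whole adipose array leaned the same way: 4188 probes passed in red (high fat) only and 523 in green (normal diet) only. Among the Serpin genes described the counts were 7 and 1, so this lean is not particular to the family. Serpinb5 (maspin, an epithelial serpin) was at least 1.91-fold higher and Serpini1 (neuroserpin) at least 1.83-fold on 1 of its 2 probes, both chosen after their values were seen. Of the 27 clade B genes, 15 were above background in neither channel of fat, among them Serpinb3a, Serpinb3b, Serpinb3d and 5 of the 7 Serpinb9 copies.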
